A study of Mus musculus with 6 samples.

Results

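The genes examined here were 35 genes of the SREBP programme, the set of sterol and fatty acid synthesis genes that cells switch on when membrane sterol runs low, in dendritic cells (DCs) grown from the bone marrow (BMDCs) of WT mice or of mice lacking Nfkb2. They were chosen by function from a list of gene symbols, by a rule that used no measured value, although earlier results of these data were known when the list was drawn up. The list held 19 sterol synthesis enzymes, 8 fatty acid synthesis genes, 5 SREBP regulators and 3 genes of sterol uptake and transport. It did not hold every enzyme of either pathway. All 35 were found among the 56748 gene IDs of the count files and all 35 passed the filter on low counts, which left 21849 named genes for testing.

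Polyadenylated RNA was sequenced from 3 WT and 3 Nfkb2-/- cultures, 6 libraries in all. WT mice were C57BL/6, and Nfkb2-/- mice carried a global deletion, so every cell of the animal lacked the gene and not only DCs. Both genotypes were grown in the same way, for 5 days with GM-CSF at 20 ng/mL and for a further 4 days with GM-CSF plus IL-4 at 10 ng/mL, and received no other stimulus. Such cultures yield mostly but not only CD11c+ DCs. Age and sex of the mice were not given in the labels. The study describes the replicates as independent biological ones, without saying in the sources used here whether each culture came from a separate animal.

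SREBPs are transcription factors held in the endoplasmic reticulum as membrane-bound precursors. When sterol is low, the escort protein Scap carries them to the Golgi, where proteases free the active fragment, and when sterol is plentiful, Insig proteins retain Scap in the reticulum. SREBP-2, from Srebf2, mainly drives sterol synthesis and uptake, while SREBP-1, from Srebf1, mainly drives fatty acid synthesis and desaturation. In dendritic cells and macrophages the programme supplies membrane lipid. Its sterol arm runs counter to the LXR receptors, which promote sterol efflux. Nfkb2 encodes p100, the precursor of the p52 subunit of NF-κB, which acts with RelB in the noncanonical pathway.

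Library totals ran from 29863927 to 55623068 counts. Nfkb2 itself, on chr19:46304320-46312385 (GRCm38), was at 215, 154 and 355 CPM in the WT libraries and at 44.8, 32.3 and 32.6 CPM in the Nfkb2-/- libraries. CPM gives each count relative to its library's total, so that libraries of different depth can be compared, here after TMM scaling, a correction for differences in library composition. The fall in Nfkb2 passed the test (log2 fold change -2.72, SE 0.33, adjusted p = 0.0307), and each library matched its label. The Nfkb2-/- replicate 1 library stood apart: 47952 genes had a count there, against 27692 to 33841 in the other libraries, and results are therefore also given without it. Defining DC markers (Itgax, H2-Ab1, Cd74, Flt3, Zbtb46, Cd209a and Batf3) were detected in every library, with a summed level, carried mostly by Cd74 and H2-Ab1, of 3050 to 5030 CPM in WT and 4500 to 5060 CPM in Nfkb2-/- libraries. They did not move alike: Itgax, which encodes CD11c, rose from 160, 277 and 123 CPM to 745, 769 and 716 CPM (log2 fold change 1.99, SE 0.30, adjusted p = 0.0414), and the DC transcription factor Zbtb46 was at 168, 151 and 218 CPM against 115, 136 and 119 CPM without passing the test (-0.54, SE 0.18, adjusted p = 0.192).

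Most of the 35 genes lay higher in Nfkb2-/- BMDCs. Of these, 3 passed the test, all of them higher: Acat2 and Lss of the sterol arm and Fads2 of the fatty acid arm. The test called a gene at an adjusted p under 0.05 with a change over 1.2-fold, and by that measure 0.453% of all genes tested were higher and 0.682% lower. At an unadjusted p under 0.05, 22 members were higher and 1, Pmvk, was lower, where 9.03% and 8.04% of all genes tested were. All 3 Nfkb2-/- libraries lay above all 3 WT libraries for 20 members and below them for 1, again Pmvk, where 12.7% and 12% of all genes tested separated in those directions. The fitted fold change was above 0 for 31 members and below 0 for Pmvk, Idi1, Insig2 and Fads1, with a median of 0.76 on the log2 scale, against a median of 0.08 over all genes tested and of -0.02 over genes averaging 5 CPM or more. DESeq2, a second count test run on the same libraries, called 16 members higher and 0 lower, where it called 4.33% of all genes higher and 4.32% lower. With it, 23 members had an unadjusted p under 0.05 in either direction, as did 4144 of the 21849 genes tested. In simulated data 73 of the 267 genes called by DESeq2 were unchanged ones, against 7 of 188 with edgeR, so its calls were the less strict there. The simulation changed 200 genes and took its spread from edgeR's own estimates, a setting that may favour edgeR. These shares need not hold in the real data.

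The number of calls by edgeR changed when libraries were left out. No member and no other gene was called without WT replicate 1, without Nfkb2-/- replicate 1, without Nfkb2-/- replicate 2 or without Nfkb2-/- replicate 3, whereas 14 members were called without WT replicate 2, with 5.87% of all genes tested there, and Lss and Scd1 were called without WT replicate 3, with 1.27% of all genes. In those 6 fits 16 to 23 members were higher at an unadjusted p under 0.05, and 31 or 32 had a fold change above 0. Over all genes tested, 2325 to 4354 were under that p in either direction. The fold changes of the called members stayed of similar size in the same fits, at 1.87 to 2.46 for Acat2, 0.95 to 1.13 for Lss and 1.46 to 1.85 for Fads2 on the log2 scale. Without Nfkb2-/- replicate 1, 22 members were higher at that threshold, where 4088 of 19244 genes tested were under it in either direction. The median over members was 0.86 there, against -0.03 over all genes tested. In that fit 26 members separated upwards. Separation is easier with fewer libraries and its share over all genes was not computed, so this count cannot be set beside that of the full data.

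**Figure D1:**
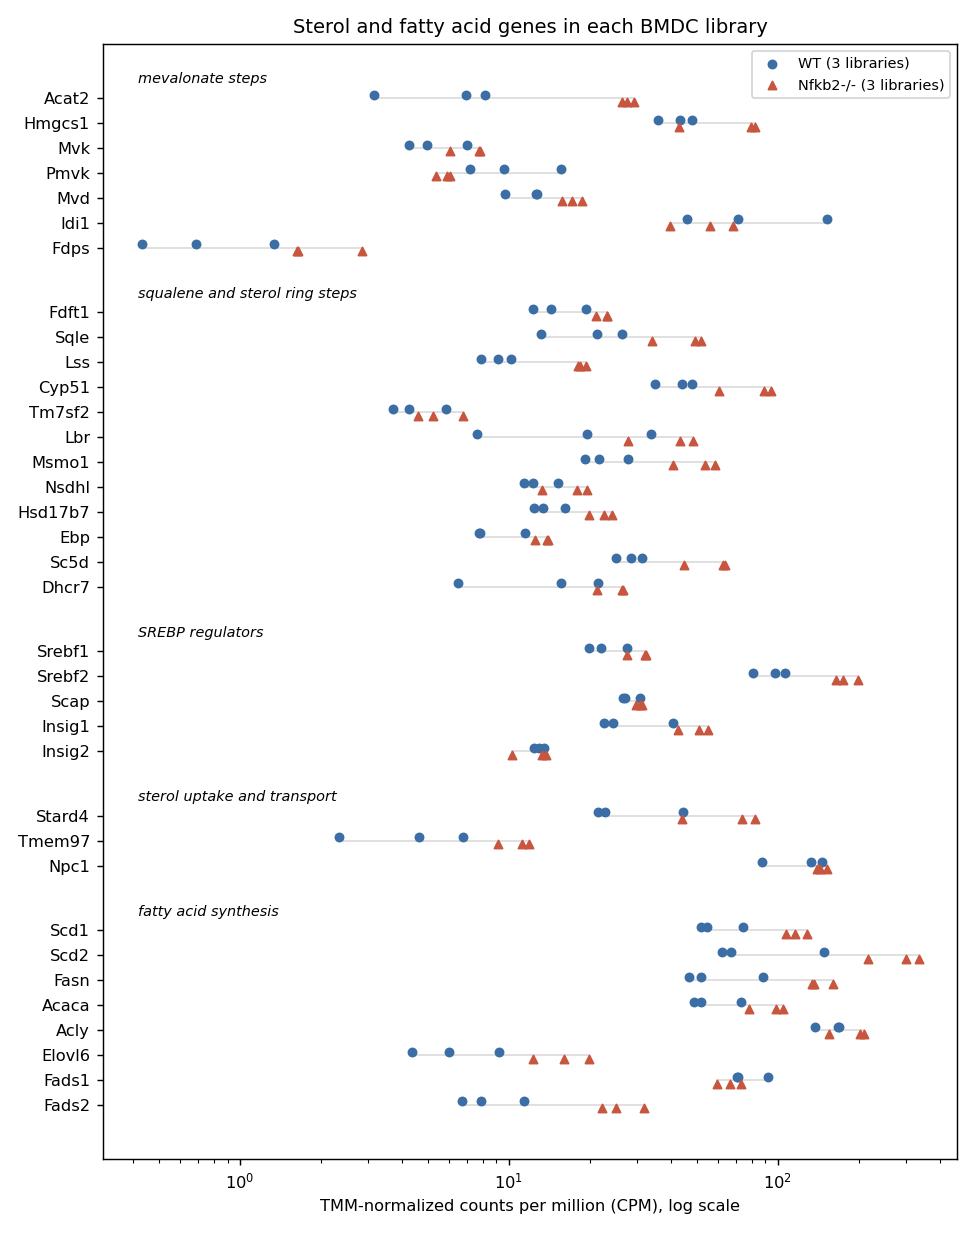
Level of each of the 35 genes in each library, as TMM-normalized CPM on a log axis, with WT libraries as circles and Nfkb2-/- libraries as triangles (3 each). Genes are grouped by role; the triangles lie to the right of all circles for 20 genes and to the left for Pmvk alone.

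Promoter sequences are shown for the called genes Acat2, Lss and Fads2, and for Hmgcs1, which was added after the motif search because it alone held the textbook sterol response element. Each runs from 250 bases before the transcription start to 50 after it, from RefSeq on GRCm38.p6, 5′ to 3′ on the gene's strand, with sterol response elements and CCAAT boxes in capitals. The windows are chr17:12960676-12960975 (minus strand) for Acat2, chr13:119690101-119690400 (plus) for Hmgcs1, chr10:76531355-76531654 (plus) for Lss and chr19:10101454-10101753 (minus) for Fads2.
Acat2: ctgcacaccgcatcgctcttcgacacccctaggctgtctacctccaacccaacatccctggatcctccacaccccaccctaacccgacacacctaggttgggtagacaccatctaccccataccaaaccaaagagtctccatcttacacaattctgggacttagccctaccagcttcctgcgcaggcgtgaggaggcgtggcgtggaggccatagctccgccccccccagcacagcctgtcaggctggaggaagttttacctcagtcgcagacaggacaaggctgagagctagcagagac
Hmgcs1: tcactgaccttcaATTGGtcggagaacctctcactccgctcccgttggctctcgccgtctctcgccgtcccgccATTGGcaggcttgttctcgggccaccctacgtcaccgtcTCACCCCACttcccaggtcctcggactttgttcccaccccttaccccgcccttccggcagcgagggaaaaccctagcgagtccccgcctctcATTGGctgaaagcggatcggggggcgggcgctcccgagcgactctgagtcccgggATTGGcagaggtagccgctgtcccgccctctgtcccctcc
Lss: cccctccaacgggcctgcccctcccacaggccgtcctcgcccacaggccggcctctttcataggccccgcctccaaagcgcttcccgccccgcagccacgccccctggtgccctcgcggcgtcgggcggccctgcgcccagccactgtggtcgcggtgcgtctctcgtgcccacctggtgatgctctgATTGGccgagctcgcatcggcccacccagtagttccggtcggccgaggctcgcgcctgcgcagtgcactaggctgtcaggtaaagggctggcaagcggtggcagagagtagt
Fads2: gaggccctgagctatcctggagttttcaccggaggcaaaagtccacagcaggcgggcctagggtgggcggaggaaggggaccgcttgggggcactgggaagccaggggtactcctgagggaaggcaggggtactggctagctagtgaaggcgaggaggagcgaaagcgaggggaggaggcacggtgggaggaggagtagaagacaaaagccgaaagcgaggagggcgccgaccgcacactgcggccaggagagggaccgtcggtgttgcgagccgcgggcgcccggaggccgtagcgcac

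RefSeq promoters were matched for 27 of the 35 genes. Those of Fads1, Fdft1, Fdps, Npc1, Scd1, Scd2, Sqle and Stard4 were not used here. The CCAAT box is the binding motif of NF-Y, a factor known to act beside SREBPs. CCAAT on either strand was present in 22 of 27 members (81.5%), against 41.1% of all genes with a promoter in the table and 41.8% of those tested here. It was found in 15 of 16 sterol enzymes and in 2 of 5 fatty acid synthesis genes. In the Hmgcs1 promoter it occurred 4 times, each time on the strand opposite to the one printed and hence as its reverse complement, ATTGG, above. Its sterol response element spanned bases -137 to -129 before the start. Lss had a CCAAT box at -62 to -58, and neither Acat2 nor Fads2 had one in this window.

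Other motifs were searched in the same windows. The sterol response element TCACNCCAC, searched on both strands, was present in 1 of 27 members, in 1.44% of all genes and in 1.49% of those tested. The palindromic E-box CACGTG, which SREBPs can also bind, was found in 5 of 27 members (Dhcr7, Hsd17b7, Insig1, Sc5d and Scap). It was present in 8.09% of all genes and in 10.6% of those tested. The GC box GGGCGG, read by Sp1-type factors, was present in 23 of 27 members (85.2%), against 38.2% of all genes and 61.6% of those tested. The NF-κB consensus was present in Ebp, Fads2, Insig2, Mvk and Srebf1, 5 of 27 members, in 5.14% of all genes and in 6.37% of those tested. In Fads2 it lay at -146 to -137. Genes with several starts, such as Insig2 and Srebf1, were counted when any start held the motif. These are matches of letters and not measured binding sites, all searched on both strands, and matches to different motifs were counted separately even where their bases overlapped.

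The mevalonate steps, which turn acetyl-CoA into isoprenoid units, were the most uneven group, with fold changes in both directions. Acat2, on chr17:12942890-12960747, encodes the cytosolic thiolase that joins acetyl-CoA units at the entry to the pathway. It was at 3.15, 8.18 and 6.92 CPM in WT and at 27.4, 26.3 and 29.1 CPM in Nfkb2-/- libraries. The groups were far apart, with a mean of 6.09 ± 2.62 (SD, n = 3) against 27.6 ± 1.42 CPM (SD, n = 3), and Acat2 rose by 2.19 on the log2 scale (SE 0.34, 95% interval 1.39 to 2.98, adjusted p = 0.042), more than any other member.

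Hmgcs1, HMG-CoA synthase, stood at 35.8, 48.2 and 43.2 CPM in WT and at 43, 79.5 and 82.4 CPM in Nfkb2-/- libraries. The Nfkb2-/- replicate 1 library fell among the WT values and the other 2 lay above them (log2 fold change 0.69, SE 0.27, adjusted p = 0.247). Mevalonate kinase, Mvk, overlapped between genotypes, at 4.25 to 7.02 CPM in WT and 6.03 to 7.83 CPM in Nfkb2-/- libraries. The diphosphomevalonate decarboxylase Mvd did not overlap, at 9.7, 12.7 and 12.6 CPM against 17.2, 15.8 and 18.7 CPM, with a log2 fold change of 0.56 (SE 0.18) and an adjusted p of 0.171.

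Pmvk and Idi1 went against the rest of the group. Pmvk, phosphomevalonate kinase, was at 9.56, 7.17 and 15.7 CPM in WT and at 5.38, 5.87 and 6.02 CPM in Nfkb2-/- libraries. It was the only member with all Nfkb2-/- libraries below all WT libraries, and its difference did not pass the test (log2 fold change -0.91, SE 0.30, adjusted p = 0.183). Idi1, isopentenyl diphosphate isomerase, was at 70.9, 45.8 and 153 CPM in WT against 39.6, 56.1 and 68 CPM. Here the libraries overlapped, WT replicate 3 stood highest, and the log2 fold change was -0.72 (SE 0.44, adjusted p = 0.452). For both genes WT replicate 3 was the highest of the 6 libraries and WT replicate 2 the lowest of the WT libraries.

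Fdps, farnesyl diphosphate synthase, had few counts, 29, 14 and 39 in WT and 96, 50 and 87 in Nfkb2-/- libraries. At 0.34 CPM per kb of exonic length over the 6 libraries it was the lowest member. Fdps shares 1124 exonic bases, 26.7% of its exonic length, with Gm43738 on the same strand. How reads matching several genes or several places in the genome were counted was not given in the sources used here, so the level of Fdps is uncertain. Its log2 fold change was 1.31 with a wide interval of 0.13 to 2.50 (adjusted p = 0.243).

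The ratio of Acat2 to Idi1 counts within a library, which no scaling between libraries can change, was 0.0445, 0.179 and 0.0451 in WT and 0.693, 0.469 and 0.429 in Nfkb2-/- libraries. The ratios did not overlap (two-sided p = 0.1 by an exact permutation test, which 3 against 3 cannot go below). This pair was chosen after its values were seen.

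The 12 genes from squalene to the finished sterol ring all had fold changes above 0, with a median of 0.85, and 8 of them separated between genotypes without overlap. Lss, on chr10:76531588-76557138, encodes lanosterol synthase, which closes squalene epoxide into the first sterol. It was at 9.13, 10.2 and 7.88 CPM in WT and at 19.4, 18.4 and 18.1 CPM in Nfkb2-/- libraries. Within each genotype the libraries were close, at 9.08 ± 1.17 (SD, n = 3) and 18.6 ± 0.727 CPM (SD, n = 3), and Lss rose by 1.04 on the log2 scale (SE 0.17, 95% interval 0.65 to 1.42, adjusted p = 0.0426). Without TMM scaling its adjusted p was 0.0676.

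Upstream of Lss, squalene epoxidase, Sqle, a rate-limiting oxygenase of the pathway, was at 21.2, 26.4 and 13.2 CPM in WT against 34, 49.1 and 51.7 CPM. Its libraries did not overlap, with a log2 fold change of 1.15 (SE 0.29) and an adjusted p of 0.109. Squalene synthase, Fdft1, was at 14.3, 12.3 and 19.3 CPM against 23.2, 21.1 and 23.1 CPM, a log2 fold change of 0.56 (SE 0.20, adjusted p = 0.213). Fdft1 shares 774 exonic bases with Ctsb on the other strand, and the strand setting of the counting was not given, so reads of the 2 genes may be mixed.

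Downstream of Lss lie the demethylation and desaturation steps. Msmo1, the sterol C4-methyl oxidase, was at 21.7, 27.8 and 19.2 CPM in WT and at 40.8, 53.8 and 58.2 CPM in Nfkb2-/- libraries. It missed the threshold narrowly (log2 fold change 1.15, SE 0.21, adjusted p = 0.0541), as did the desaturase Sc5d (1.02, SE 0.19, adjusted p = 0.0557). Sc5d was at 25.1, 31.3 and 28.4 CPM in WT against 45, 62.8 and 63.8 CPM in Nfkb2-/- libraries. Both genes had Nfkb2-/- replicate 1 as the lowest of the Nfkb2-/- libraries, still above every WT library.

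Cyp51, lanosterol demethylase, was at 35.1, 44.2 and 48.2 CPM in WT against 60.3, 88.7 and 94 CPM (log2 fold change 0.93, SE 0.22, adjusted p = 0.0943). Hsd17b7, a ketosteroid reductase acting beside Msmo1, was at 12.4, 16.2 and 13.4 CPM against 19.9, 24.1 and 22.6 CPM (0.67 on the log2 scale, SE 0.17, adjusted p = 0.115). Ebp, the sterol isomerase, was at 7.76, 11.5 and 7.81 CPM against 12.5, 13.9 and 14 CPM (0.58 on the log2 scale, SE 0.21, adjusted p = 0.216). For these 3 enzymes too every Nfkb2-/- library lay above every WT library.

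The 4 remaining ring enzymes overlapped between genotypes. Dhcr7, the reductase that finishes cholesterol, ran from 6.47 to 21.4 CPM in WT and from 21.3 to 26.5 CPM in Nfkb2-/- libraries. Lbr, a sterol reductase that is also the lamin B receptor of the nuclear envelope, ran from 7.61 to 33.7 CPM in WT and from 27.7 to 48.5 CPM in Nfkb2-/- libraries. In both, WT replicate 3 was far below the other WT libraries, and the intervals of the log2 fold changes of 0.77 and 0.97 included 0. The dehydrogenase Nsdhl (0.38) and the reductase Tm7sf2 (0.26), which does the same reaction as Lbr, had smaller fold changes, with adjusted p-values of 0.415 and 0.634. Tm7sf2 shares 532 exonic bases with Vps51 on the same strand.

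**Figure D2:**
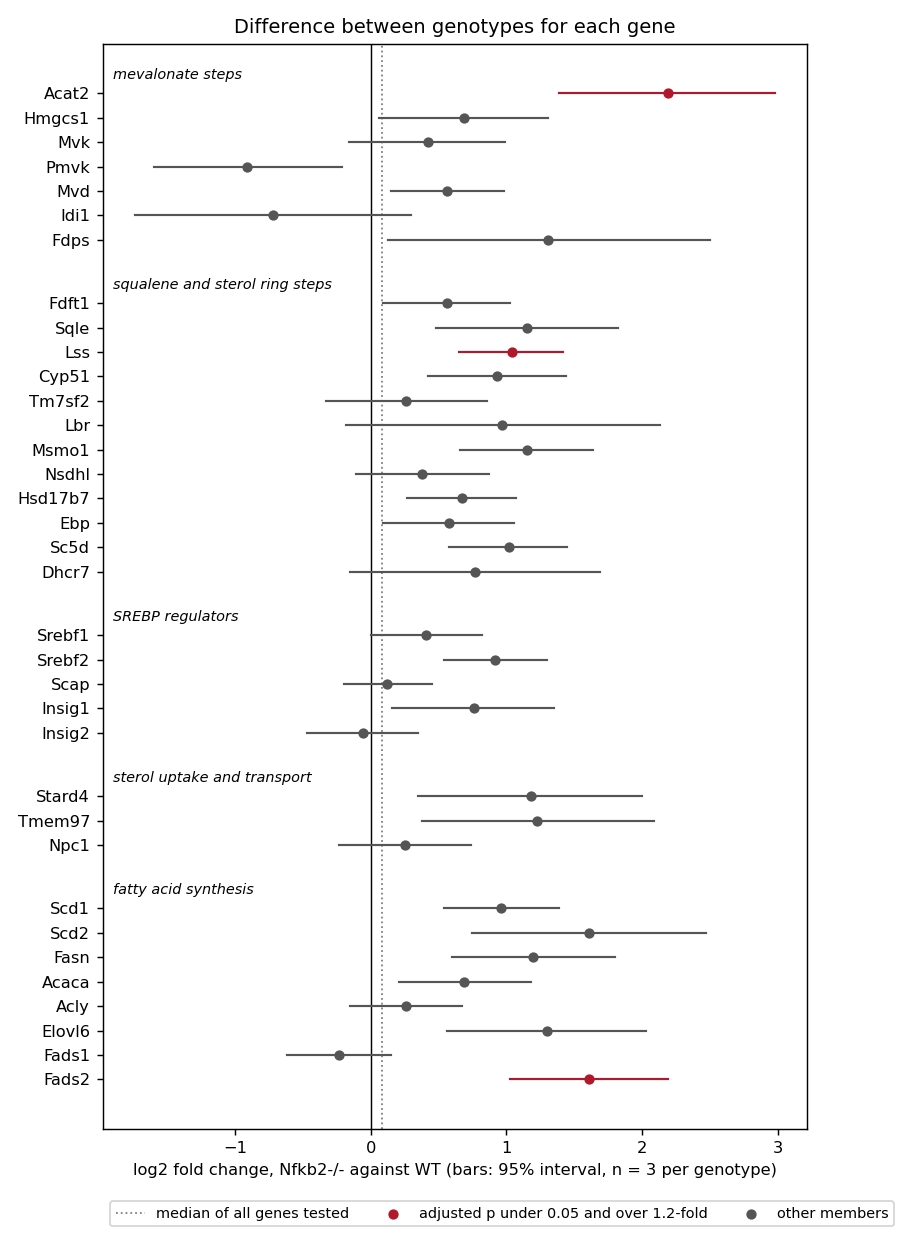
Log2 fold change of each gene between Nfkb2-/- and WT, from the edgeR fit with 3 libraries per genotype; bars are 95% intervals and the dotted line is the median of all genes tested, 0.08. Only Acat2, Lss and Fads2 (red) passed the test; the points of 31 genes lie to the right of 0, and those of Pmvk, Idi1, Insig2 and Fads1 to the left.

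None of the 5 regulators passed the test, and Srebf2 and Insig1 were the regulators whose libraries did not overlap between genotypes. Srebf2 was at 80.7, 106 and 97.4 CPM in WT and at 165, 175 and 198 CPM in Nfkb2-/- libraries. No WT library came near the Nfkb2-/- range, yet the gene was not called, with an adjusted p of 0.0522 (log2 fold change 0.92, SE 0.16, 95% interval 0.54 to 1.30). Over the alternatives it was called in 6 of 14, with fold changes of 0.81 to 1.01. Srebf1 overlapped, at 22, 27.5 and 19.9 CPM against 32.1, 27.4 and 32.5 CPM (log2 fold change 0.41, SE 0.18, adjusted p = 0.295).

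The ratio of Srebf1 to Srebf2 counts within a library was 0.273, 0.258 and 0.204 in WT and 0.195, 0.157 and 0.165 in Nfkb2-/- libraries. All Nfkb2-/- ratios were lower, with means of 0.172 ± 0.0201 (SD, n = 3) against 0.245 ± 0.0364 (SD, n = 3; exact permutation test, two-sided p = 0.1). The gene count of Srebf1 does not tell apart its isoforms, which are known to start at different promoters.

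Insig1, itself a known SREBP target and a brake on Scap, was at 22.6, 40.9 and 24.4 CPM in WT against 42.4, 50.9 and 55.2 CPM. Its libraries did not overlap, but WT replicate 2 and Nfkb2-/- replicate 1 were close to each other (log2 fold change 0.76, SE 0.25, adjusted p = 0.192). Insig2, its close relative, overlapped between genotypes, at 13, 12.4 and 13.5 CPM against 10.3, 13.7 and 13.3 CPM. The 95% interval of the Insig2 log2 fold change, -0.47 to 0.35, lay below the 0.76 fitted for Insig1 but overlapped the Insig1 interval of 0.16 to 1.35. The Insig2 fold change of -0.06 turned to 0.02 without TMM scaling and to 0.05 without Nfkb2-/- replicate 1. The ratio of Insig1 to Insig2 counts was 1.74, 3.3 and 1.81 in WT and 4.12, 3.71 and 4.15 in Nfkb2-/- libraries, and these ranges were again apart (exact permutation test, two-sided p = 0.1). Scap, the escort, was at 26.5 to 30.8 CPM in WT and 29.7 to 31.3 CPM in Nfkb2-/- libraries, with an interval of -0.20 to 0.45 on the log2 scale.

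Of the transport genes, Tmem97, an endoplasmic reticulum protein that controls the level of Npc1, was at 4.63, 6.74 and 2.34 CPM in WT and at 9.1, 11.9 and 11.2 CPM in Nfkb2-/- libraries. They did not overlap (log2 fold change 1.23, SE 0.36, adjusted p = 0.152). Stard4, a soluble sterol carrier, was at 22.8, 44.4 and 21.4 CPM against 44, 73.7 and 82.6 CPM (1.18 on the log2 scale, SE 0.35, adjusted p = 0.154). Here WT replicate 2 lay just above Nfkb2-/- replicate 1. Npc1, which exports sterol from lysosomes and is not a core member of the synthesis programme, ran from 87.2 to 146 CPM in WT and from 140 to 152 CPM in Nfkb2-/- libraries, with an adjusted p of 0.58.

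In the fatty acid arm 6 of 8 genes separated between genotypes without overlap, and the median log2 fold change was 1.08. Fads2, on chr19:10062765-10101746, encodes the delta-6 desaturase that opens the synthesis of long polyunsaturated fatty acids. It was at 7.85, 11.4 and 6.71 CPM in WT and at 25.1, 22.2 and 31.7 CPM in Nfkb2-/- libraries. The groups did not approach each other, at 8.64 ± 2.42 (SD, n = 3) against 26.3 ± 4.88 CPM (SD, n = 3), and Fads2 rose by 1.61 on the log2 scale (SE 0.25, 95% interval 1.03 to 2.19, adjusted p = 0.042). Without TMM scaling its adjusted p was 0.0502.

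Fads1, the delta-5 desaturase of the next step, did not separate between genotypes. It lies on chr19:10182888-10196877, with its 5′ end 81.1 kb from that of Fads2, and was at 91.7, 71.4 and 70.8 CPM in WT against 59.5, 66.3 and 72.9 CPM. The libraries overlapped, and the 95% interval of the log2 fold change, -0.62 to 0.15, did not reach the lower end of that of Fads2. The ratio of Fads2 to Fads1 counts within a library was 0.0856, 0.159 and 0.0948 in WT and 0.421, 0.335 and 0.436 in Nfkb2-/- libraries. Every Nfkb2-/- ratio was above every WT ratio, with means of 0.397 ± 0.0542 (SD, n = 3) against 0.113 ± 0.04 (SD, n = 3; exact permutation test, two-sided p = 0.1).

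Fasn, fatty acid synthase, was at 51.9, 87.8 and 46.8 CPM in WT and at 136, 134 and 160 CPM in Nfkb2-/- libraries, and did not pass the test (log2 fold change 1.2, SE 0.26, adjusted p = 0.0777). WT replicate 2 was the highest WT library and still below every Nfkb2-/- library. Acaca, the acetyl-CoA carboxylase that makes malonyl-CoA for Fasn, was at 52, 73.3 and 49 CPM against 78.1, 98.5 and 105 CPM (0.69 on the log2 scale, SE 0.21, adjusted p = 0.153). Acly, which supplies cytosolic acetyl-CoA to both arms, overlapped at 138, 169 and 167 CPM against 155, 203 and 210 CPM (0.26 on the log2 scale, SE 0.17, adjusted p = 0.494). Elovl6, the elongase acting on the product of Fasn, was low but separated, at 6, 9.2 and 4.37 CPM against 12.3, 16 and 19.8 CPM (1.30 on the log2 scale, SE 0.31, adjusted p = 0.102).

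The stearoyl-CoA desaturases Scd1 and Scd2, which introduce the first double bond, are neighbours on chromosome 19, with 5′ ends 114 kb apart. Scd1, on chr19:44394455-44407879, was at 52, 54.6 and 74.1 CPM in WT and at 107, 129 and 116 CPM in Nfkb2-/- libraries (log2 fold change 0.96, SE 0.18, adjusted p = 0.0596). Scd2, on chr19:44293674-44306864, was at 62.2, 149 and 67.3 CPM against 216, 299 and 334 CPM (1.61 on the log2 scale, SE 0.37, adjusted p = 0.0916). In both genes the Nfkb2-/- libraries were all above the WT libraries, and Scd2 had the wider spread, WT replicate 2 being far above the other WT libraries. The ratio of Scd2 to Scd1 counts overlapped, at 0.908 to 2.73 in WT and 2.02 to 2.88 in Nfkb2-/- libraries (exact permutation test, two-sided p = 0.3). Scd1 and Scd2 lie 1.9 and 2.0 Mb from Nfkb2, so sequence linked to the targeted allele and the loss of Nfkb2 cannot be told apart for them in this design. Fads1 and Fads2 lie 36.1 and 36.2 Mb from it on the same chromosome.

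**Figure D3:**
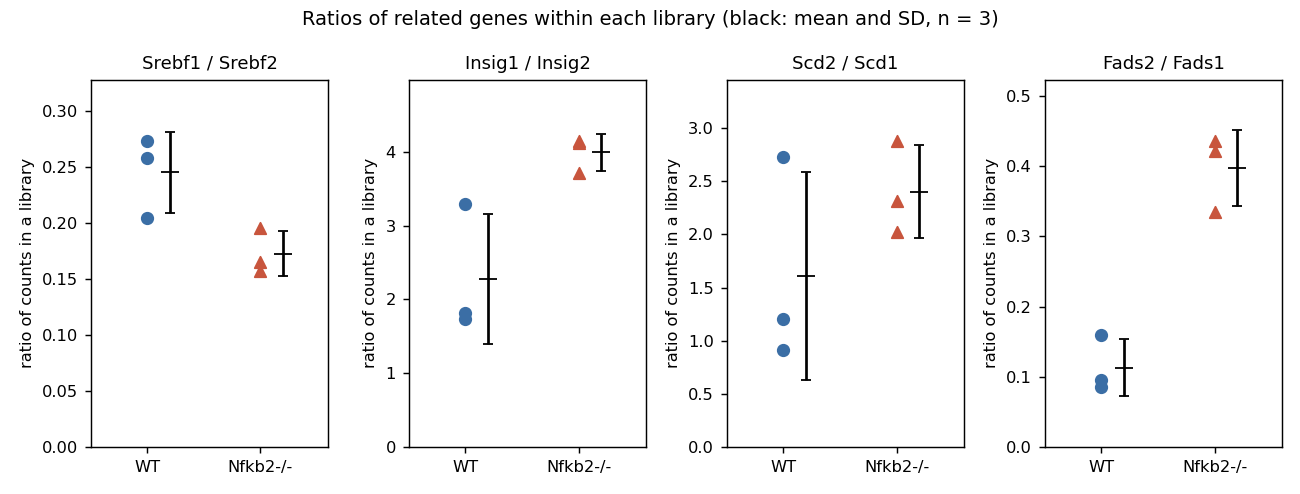
Ratio of the counts of related genes within each library, WT as circles and Nfkb2-/- as triangles, with the mean and SD of 3 libraries in black; each axis starts at 0. Srebf1 to Srebf2 is lower and Insig1 to Insig2 and Fads2 to Fads1 are higher in every Nfkb2-/- library, whereas Scd2 to Scd1 overlaps.

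Levels between members were compared per kb of exonic length. This length joined all annotated exons of a gene (10787 bases for Lss), so it can exceed that of the transcript expressed and lower the value. Over the 6 libraries Scd2 (34.4 CPM per kb) and Acly (32.9 CPM per kb) stood highest, followed by Idi1 (20.6 CPM per kb), Srebf2 (19.1 CPM per kb) and Scd1 (18.2 CPM per kb). Tm7sf2 (1.15 CPM per kb), Lss (1.28 CPM per kb) and Elovl6 (1.75 CPM per kb) were the lowest after Fdps. By this measure the called genes were not among the most abundant, Lss as above, Fads2 at 5.31 CPM per kb and Acat2 at 6.62 CPM per kb.

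The sterol and fatty acid arms were compared next, since the arms have partly separate regulators. The median log2 fold change was 0.69 over the 19 sterol enzymes and 1.08 over the 8 fatty acid genes, a difference of -0.40, which ran from -0.45 to -0.27 over the 14 alternatives. Of the sterol enzymes, 12 were higher and 1 lower at an unadjusted p under 0.05, and of the fatty acid genes 6 were higher and 0 lower. The mean log2 CPM of the sterol enzymes was 3.56, 3.75 and 3.74 in WT and 4.26, 4.44 and 4.52 in Nfkb2-/- libraries. That of the fatty acid genes was 5.28, 5.74 and 5.24 in WT and 6.16, 6.39 and 6.56 in Nfkb2-/- libraries. Both arms were thus higher in each Nfkb2-/- library than in any WT library. The level of the sterol arm minus that of the fatty acid arm was -1.72, -1.99 and -1.50 in WT and -1.91, -1.95 and -2.04 in Nfkb2-/- libraries. These differences overlapped, so a stronger response of either arm was not shown.

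**Figure D4:**
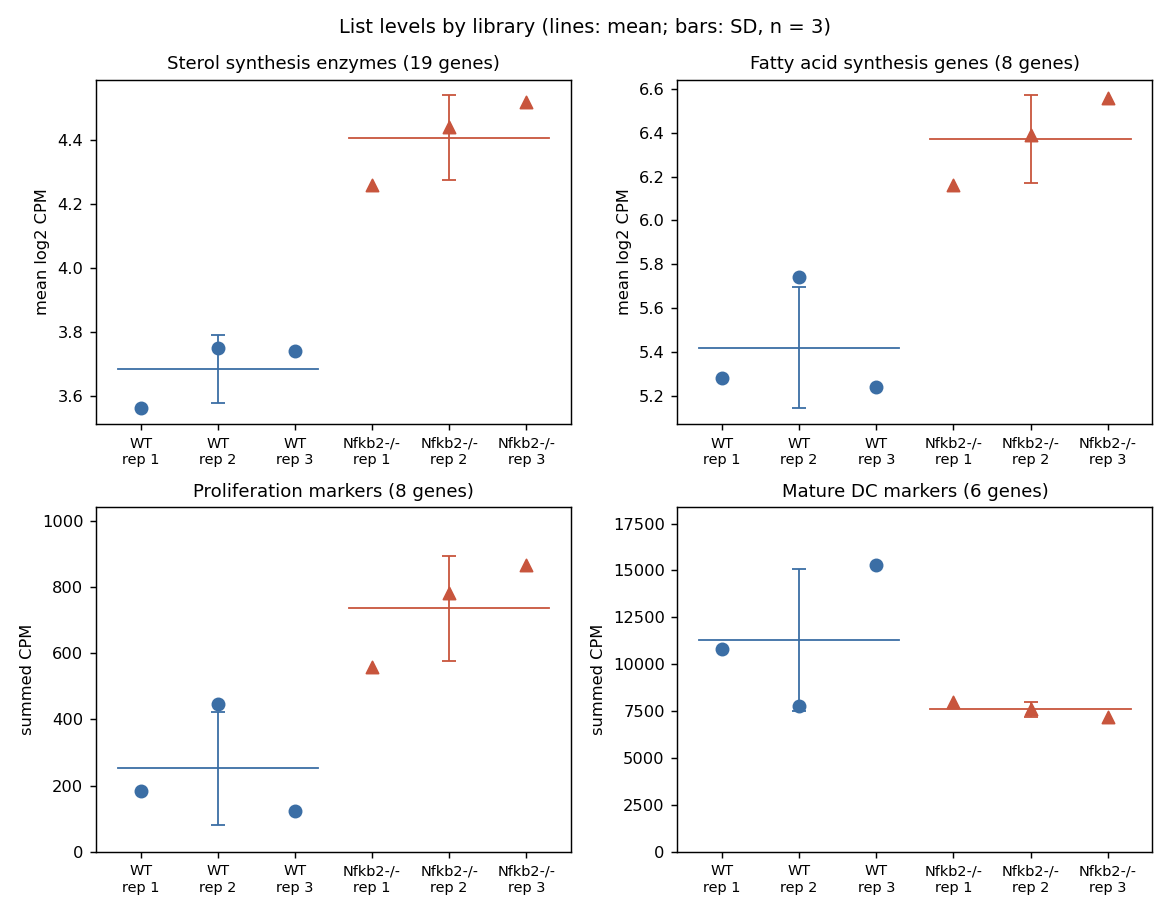
Mean log2 CPM of the 19 sterol enzymes and the 8 fatty acid genes (top, axes not starting at 0) and summed CPM of 8 proliferation and 6 mature DC markers (bottom) in each library, WT as circles and Nfkb2-/- as triangles; lines are means and bars SDs of 3 libraries. Both arms and the proliferation markers are higher in every Nfkb2-/- library than in any WT library, and WT replicate 2 is the WT library nearest to them for fatty acid genes and proliferation.

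For most members the WT libraries varied more among themselves than the Nfkb2-/- libraries did. By another measure, correlations of log2 CPM over all genes tested were 0.949 to 0.973 between WT libraries. Between Nfkb2-/- libraries they were 0.925 and 0.928 for pairs with Nfkb2-/- replicate 1, and 0.985 for the other pair. The coefficient of variation was larger in WT for 29 of 35 members (82.9%), with medians of 23.6% in WT and 14.2% in Nfkb2-/- libraries. Genes averaging 5 CPM or more leaned the same way, less strongly. It was larger in WT for 60.6% of them, with medians of 16.3% in WT and 13% in Nfkb2-/- libraries. WT replicate 2 was the highest WT library for 23 of 35 members, against 37% of all genes tested. Nfkb2-/- replicate 3 was the highest and Nfkb2-/- replicate 1 the lowest Nfkb2-/- library for 23 members each, against 26.5% and 39.1% of all genes tested.

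Markers of other cell states and types were read beside the members. All 8 proliferation markers (Mki67, Top2a, Mcm3, Mcm5, Ccnb1, Cdk1, Pcna and Tyms) were higher in every Nfkb2-/- library, 1 of them, Mcm3, passing the test, with summed levels of 185, 447 and 123 CPM in WT and 559, 781 and 867 CPM in Nfkb2-/- libraries. By these sums WT replicate 2 was again the highest WT library and Nfkb2-/- replicate 1 the lowest Nfkb2-/- library. Single markers differed: Mcm3 was at 63.3 CPM in Nfkb2-/- replicate 1 against 56.9 and 60.8 CPM in the other Nfkb2-/- libraries. Mcm5 and Tyms were not lowest in that library either. Of the 6 mature DC markers (Ccr7, Fscn1, Cd86, Cd40, Ccl22 and Relb), 5 had a fold change below 0 and 0 passed the test. The exception, Cd86, was at 292, 369 and 543 CPM in WT against 580, 641 and 575 CPM (log2 fold change 0.58, SE 0.24, adjusted p = 0.284). Summed levels were 10800, 7760 and 15300 CPM in WT against 7960, 7620 and 7180 CPM. They were carried mostly by Ccl22, which overlapped between genotypes. Macrophage markers overlapped at 905, 1070 and 145 CPM against 579, 667 and 788 CPM, with 0 of 8 called. Neutrophil markers summed to 83.8 to 227 CPM in WT and 117 to 125 CPM in Nfkb2-/- libraries, mast cell and basophil markers to 44.5 to 52.8 CPM and 43.8 to 53.4 CPM, and lymphocyte markers to at most 0.757 CPM and 4.67 CPM. The mast cell and basophil sum was carried by Kit, and Cpa3, a mast cell protease of that list, was at 10.8, 6.31 and 6.85 CPM in WT against 1.86, 2.34 and 2.49 CPM and passed the test (log2 fold change -1.84, SE 0.28, adjusted p = 0.0413). In WT replicate 2, 2 of the 4 lymphocyte markers were at 0, and 1 of the 5 mast cell and basophil markers was at 0 in each of 4 libraries. The part of proliferation, maturation or cell makeup in the levels of the sterol and fatty acid genes was not tested, and in bulk RNA a change in the share of cells and a change per cell cannot be told apart.

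Other genes of sterol and fatty acid handling were read from 5 lists holding 40 genes. None of the 40 was called by edgeR. DESeq2 called 3 higher and 6 lower, where it called 4.33% and 4.32% of all genes tested. At an unadjusted p under 0.05 in edgeR, 6 were higher and 7 lower, where 9.03% and 8.04% of all genes were. The list of LXR and sterol efflux genes ran the other way: all 6 had a fold change below 0, with a median of -0.71. In every Nfkb2-/- library 4 of them were lower, where 12% of all genes tested were. The sterol exporter Abca1 was at 423, 442 and 504 CPM in WT and at 230, 306 and 313 CPM in Nfkb2-/- libraries (log2 fold change -0.69, SE 0.18, adjusted p = 0.117). Abcg1, its partner in efflux, was at 741, 608 and 895 CPM against 445, 460 and 448 CPM (-0.73, SE 0.18, adjusted p = 0.113). Mylip, a ubiquitin ligase induced by LXR, was at 71.9, 33.6 and 94.5 CPM against 23, 24.1 and 22.6 CPM (-1.52, SE 0.35, adjusted p = 0.0916). The apolipoprotein Apoe, named after its values were seen, was at 82.3, 56.5 and 3.68 CPM against 2.25, 0.725 and 0.898 CPM, with WT replicate 3 near the Nfkb2-/- libraries. The receptors themselves, Nr1h2 and Nr1h3, overlapped between genotypes.

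Of the 14 genes of acetyl-CoA supply, elongation and acyl-CoA use, 6 were higher in every Nfkb2-/- library, where 12.7% of all genes tested were. Among them Acacb, named after its values were seen, was low, at 0.585 to 0.688 CPM in WT. It was at 6.53 CPM in Nfkb2-/- replicate 1 against 0.923 and 1.1 CPM in the other Nfkb2-/- libraries. Among the 3 most abundant genes of this list, the elongase Elovl5 was at 125, 170 and 189 CPM in WT against 243, 309 and 303 CPM (log2 fold change 0.82, SE 0.20, adjusted p = 0.104). The acyl-CoA synthetases Acsl4 and Acsl5 overlapped. Elovl1 and Aacs, named after their values were seen, were at 27.6 to 32.9 CPM against 47.6 to 51.1 CPM and at 10.7 to 15.3 CPM against 20.9 to 23 CPM. The SREBP processing list, with the protease Mbtps1, had a median of 0.07 and 0 of 7 genes separated; Erlin1 of that list was at 107 to 220 CPM against 104 to 115 CPM. The isoprenoid branch (Nus1, Ggps1 and Dhdds its most abundant genes) had a median of 0.03 and 0 of 5 separated. In sterol esterification and transport, 2 of 8 genes were lower in every Nfkb2-/- library, where 12% of all genes tested were. They were Npc2 (372 to 577 CPM against 270 to 315 CPM) and Gramd1b, named after its values were seen (84.7 to 95.6 CPM against 58.2 to 63.2 CPM). Soat1 and Lipa overlapped, each lowest in WT replicate 3.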

How the data were processed

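Raw read counts per gene from 3 WT and 3 Nfkb2-/- BMDC libraries were used as deposited by the authors. Per the labels and the submitters' processing notes, reads were aligned with HISAT2 to the mouse genome (GRCm38, mm10); the counting program, annotation release and strand setting were not given in the sources used here. Genes were named from GENCODE M21, which matched 52073 of 56748 IDs, and IDs without a name, holding 1.01% to 1.75% of counts, were left out. A summed count of 50 or more was required of a gene for testing with edgeR 4.0.16 (R 4.3.3; TMM scaling, quasi-likelihood test, Benjamini-Hochberg adjustment over 21849 genes, no covariate). SEs are the fold change over the square root of F, and 95% intervals use the fit's degrees of freedom. Genes were called at an adjusted p under 0.05 and a fold over 1.2. The alternatives were DESeq2 1.42.0, limma voom (limma 3.58.1), 2 other scalings, 3 other filters, a replicate block and leaving out each library. The pipeline was tested on data simulated with edgeR's gene-wise dispersion estimates and 200 changed genes. There, unchanged genes made up 7 of 188 calls by edgeR, 73 of 267 by DESeq2 and 10 of 187 by limma voom. The members and lists were chosen with earlier results of these data known, and no test was run over a list. All members were named; of other pathway genes, those called or the 3 most abundant per list, except an item that is not reported here. Marker lists are given as sums, and the single markers given values were chosen after those values were seen. Promoters are from RefSeq (GRCm38.p6), with positions counted from the start without a base 0. At these depths 1 count was worth 0.0187 to 0.0344 CPM. A table joining the same counts was not used.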

Additional observations from a re-analysis of the deposited data

How the results depend on the processing

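Against 248 genes and 3 members called in the reported fit, DESeq2 called 1890 and 16, limma voom 488 and 9, RLE size factors 239 and 3, total counts without TMM 247 and 5, filterByExpr 397 and 7, no filter beyond 1 count 1625 and 14 (13 higher, and Pmvk lower), and at least 10 counts in every library 459 and 7. At an unadjusted p under 0.05 there were 3730 and 23. Leaving out 1 library gave 0 to 1248 genes and 0 to 14 members; the calls were 0 without WT replicate 1 or without any Nfkb2-/- library, with 2325 to 4088 genes and 17 to 22 members still under an unadjusted p of 0.05 and fold changes of the called members that stayed at 0.95 or above; each of these fits has fewer samples. Acat2 was called in 8, Lss in 8 and Fads2 in 7 of 14 alternatives. The sterol median ran from 0.59 to 0.86 over the left-out libraries, and the fatty acid median and the difference between the arms moved by less than the spread between libraries in every alternative. The sign of Insig2 reversed without TMM (0.02) and without Nfkb2-/- replicate 1 (leave-one-out range -0.16 to 0.05); no other member reversed. With the replicate number as a block, edgeR called 0 genes and 0 members (3331 genes and 25 members under an unadjusted p of 0.05, DESeq2 not run with the block). Deviations from the genotype mean correlated at 0.262, 0.148 and 0.0224 between same-numbered libraries. Between libraries of different numbers they correlated at -0.237 to 0.164. These ranges overlap, so whether the numbers mark pairs cannot be decided from them.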
